A study of Homo sapiens with 6 samples.

Results

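Desmosomes are the junctions that rivet neighbouring epithelial cells together and tie each junction to the keratin filaments inside. Of 10 desmosome genes listed by name (DSG2, DSC2, JUP, PKP1, PKP2, PKP3, PKP4, DSP, PPL and EVPL), 9 were measured through 11 array features, out of 12562 named genes and 33497 features in all. DSC2, which encodes desmocollin 2, had no feature among those analysed here. Each gene was read from its single-symbol features, and where a gene had several, the brightest by mean log2 intensity across the 6 arrays stood for it, so measured differences between groups played no part in the choice.

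Cells of SW480, a human colorectal adenocarcinoma line, were given a FOXC2 construct by retrovirus (3 arrays) or the empty pBabe vector in the same way (3 arrays). FOXC2 encodes a forkhead transcription factor known from epithelial-mesenchymal transition, in which cells loosen epithelial junctions. Both groups were selected in puromycin at 0.5 μg/mL for 3 to 5 days, grown in 10% serum and harvested at 90% confluence, and each array held total RNA of a separate culture. The labels name neither separate transductions nor clones, so the p-values measure the spread between cultures. Precision was limited by the 3 arrays per group.

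In a desmosome, desmogleins and desmocollins reach across to the next cell. Their tails bind the armadillo proteins plakoglobin (JUP) and the plakophilins (PKP1 to PKP3), which in turn bind desmoplakin (DSP), the plakin that grips keratin. Periplakin (PPL) and envoplakin (EVPL) are further plakins, which partner each other and are best known from the cornified envelope of skin. Simple epithelia such as that of the colon rely on desmoglein 2 and desmocollin 2, while PKP1 is mostly a gene of stratified epithelia and PKP4 (p0071) is also found at adherens junctions.

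Array medians ranged from 895 to 913, and the lowest value in the table was 50.002. FOXC2 itself had intensities of 8777, 8262 and 8344 in FOXC2 cultures, against 2319, 2323 and 2818 in pBabe cultures, in the direction of the labels. Of the colorectal epithelium markers, 7 of 9 were measured, and their summed intensity ran from 73030 to 77420 in FOXC2 cultures and from 67620 to 72470 in pBabe cultures. Of these, KRT19 (log2 fold change 1.06), EPCAM (2.35), CDH1 (1.03), VIL1 (3.11) and CDX2 (1.19) passed the test described below as higher and KRT18 (-0.30) as lower. CDH1, E-cadherin, was dim in both groups, at 178, 233 and 195 in FOXC2 and 96.7, 113 and 86.1 in pBabe. Markers of other cell types were measured in part. The 5 measured of 9 fibroblast markers summed to between 1453 and 1672 in FOXC2 cultures, against 4070 to 4655 in pBabe, and 3 of them fell: COL1A1 (-2.22), PDGFRB (-2.37) and DCN by its brightest feature (-1.94). The mean over the features of DCN was -1.16, and 1 of them (NM_133506) did not pass (-0.48, limma adjusted p 0.213). The other two fibroblast markers, named after their values were seen, did not pass: COL3A1 was at 0.37 (limma adjusted p 0.116), with every FOXC2 array above every pBabe array, and ACTA2 at -0.02 (0.913). The 1 measured of 5 leukocyte markers, CD3D, was at 72.4 to 94.7 in FOXC2 and 675 to 813 in pBabe, and it fell (-3.12, limma adjusted p 4.17e-05). The keratinocyte and endothelial markers, named after their values were seen, did not pass on all arrays and their groups overlapped. The 1 measured of 8 keratinocyte markers, KRT5, was bright in both groups, at 36210 to 40380 in FOXC2 and 30470 to 36500 in pBabe (0.16, limma adjusted p 0.285). The 1 measured of 5 endothelial markers, TIE1, was at 92.5 to 147 in FOXC2 and 86.8 to 298 in pBabe (-0.75, limma adjusted p 0.278), and it passed without pBabe replicate 3 (-1.31, 0.0121). No value in the table was below 50.002, so a value above 0 does not show that a marker was expressed. The part of these markers in the results on desmosome genes was not tested. All cultures were of the SW480 line. In bulk RNA, a change in the mix of its cells and a change in RNA per cell cannot be told apart.

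The RefSeq promoter table (GRCh38.p14) held windows for 6 of the 10 genes: DSG2, DSC2, JUP, PKP1, PKP4 and DSP. Each window runs from 250 bases before to 50 bases after a gene start. Windows of a desmosome gene that rose, of a desmosome gene that fell and of DSP, which did not pass, are shown because all 3 hold the same motif. This is the E-box CACCTG, or CAGGTG when read on the other strand, the letters bound by SNAI and ZEB repressors of epithelial junction genes. The windows lie at chr18:31497927-31498226 on the plus strand for DSG2, at chr17:41785927-41786226 on the minus strand for the JUP start that holds the motif, and at chr6:7541421-7541720 on the plus strand for DSP. They are written 5′ to 3′ on the strand of the gene, with each E-box in capitals.
DSG2: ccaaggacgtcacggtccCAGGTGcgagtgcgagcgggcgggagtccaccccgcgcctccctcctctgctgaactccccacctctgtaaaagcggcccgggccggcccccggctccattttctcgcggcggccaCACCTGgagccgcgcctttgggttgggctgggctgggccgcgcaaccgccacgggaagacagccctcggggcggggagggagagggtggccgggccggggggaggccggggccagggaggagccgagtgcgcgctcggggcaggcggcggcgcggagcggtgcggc
JUP: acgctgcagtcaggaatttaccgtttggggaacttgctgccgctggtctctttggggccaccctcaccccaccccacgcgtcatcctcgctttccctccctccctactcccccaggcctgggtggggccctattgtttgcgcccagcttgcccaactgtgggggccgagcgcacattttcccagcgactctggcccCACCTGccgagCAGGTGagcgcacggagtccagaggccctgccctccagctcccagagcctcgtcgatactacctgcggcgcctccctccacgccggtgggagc
DSP: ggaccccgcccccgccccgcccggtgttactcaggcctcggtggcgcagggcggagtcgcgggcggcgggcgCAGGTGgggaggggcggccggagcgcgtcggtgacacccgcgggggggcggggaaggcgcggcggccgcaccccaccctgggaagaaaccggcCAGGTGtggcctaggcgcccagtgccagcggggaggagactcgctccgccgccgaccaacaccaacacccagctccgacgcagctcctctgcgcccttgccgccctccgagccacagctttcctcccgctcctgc

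Each of these windows held 2 E-boxes. They began 232 and 116 bases before the gene start for DSG2, 54 and 43 bases before it for JUP, and 178 and 85 bases before it for DSP. With the 1 E-box of DSC2, 4 of the 6 genes and 4 of their 9 windows held the motif, where 20.6% of 35116 promoters in the table did. The windows of PKP1, of PKP4, which also rose by its brighter feature, and of the other JUP and DSC2 starts held no E-box. PKP2, PKP3, PPL and EVPL had no window. The forkhead motif TGTTTAC, searched on both strands, occurred in 1 of the 6 genes, at a DSC2 start, and in 3.42% of all promoters. The grainyhead core CCGGTT occurred in 1 of the 6, DSP, and in 7.23% of all promoters, and the CDX motif TTTATNG in 0 of the 6 and in 9.73%. No matches overlapped each other. These 9 windows had GC contents of 60.7% to 77.0%, against a median of 58.7% over the table, and the motif shares were not matched for it. A match describes the letters only and shows no binding.

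Cells with the FOXC2 construct were set against cells with the empty vector to see which desmosome transcripts differed. The desmosome genes changed modestly and in both directions. DSG2, PKP3, PKP4 and EVPL rose, JUP, PKP2 and PPL fell, and DSP and PKP1 did not pass. None of the 9 reached a 2-fold change. Over the array 6.0% of all features passed with at least that, so none among 9 is near that share. The changes were tested with limma on log2 intensity, with p-values adjusted by Benjamini-Hochberg across the whole array and a threshold of 0.05. In that fit 7 of 9 measured genes passed, 4 higher and 3 lower, where 26.3% of all features and 28.4% of named genes by their brightest feature did, 13.3% of all features (14.1% of named genes) higher and 13.0% (14.3%) lower. With features left out whose mean lay below the median of all values in both groups, 7586 of 17687 passed. That is a larger share than 26.3%, and 4 desmosome genes were again higher and 3 lower, with PKP1 left out as dim. For the same 7 genes every array of 1 group lay beyond every array of the other, which was so for 45.5% of all features. The median log2 fold change of the 9 genes was 0.21, beside 0.03 over all features, and the median of its absolute size was 0.475, beside 0.249. That 0.21 is the value of PKP1, a dim gene that did not pass, with the passing genes split to either side of it.

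**Figure D1:**
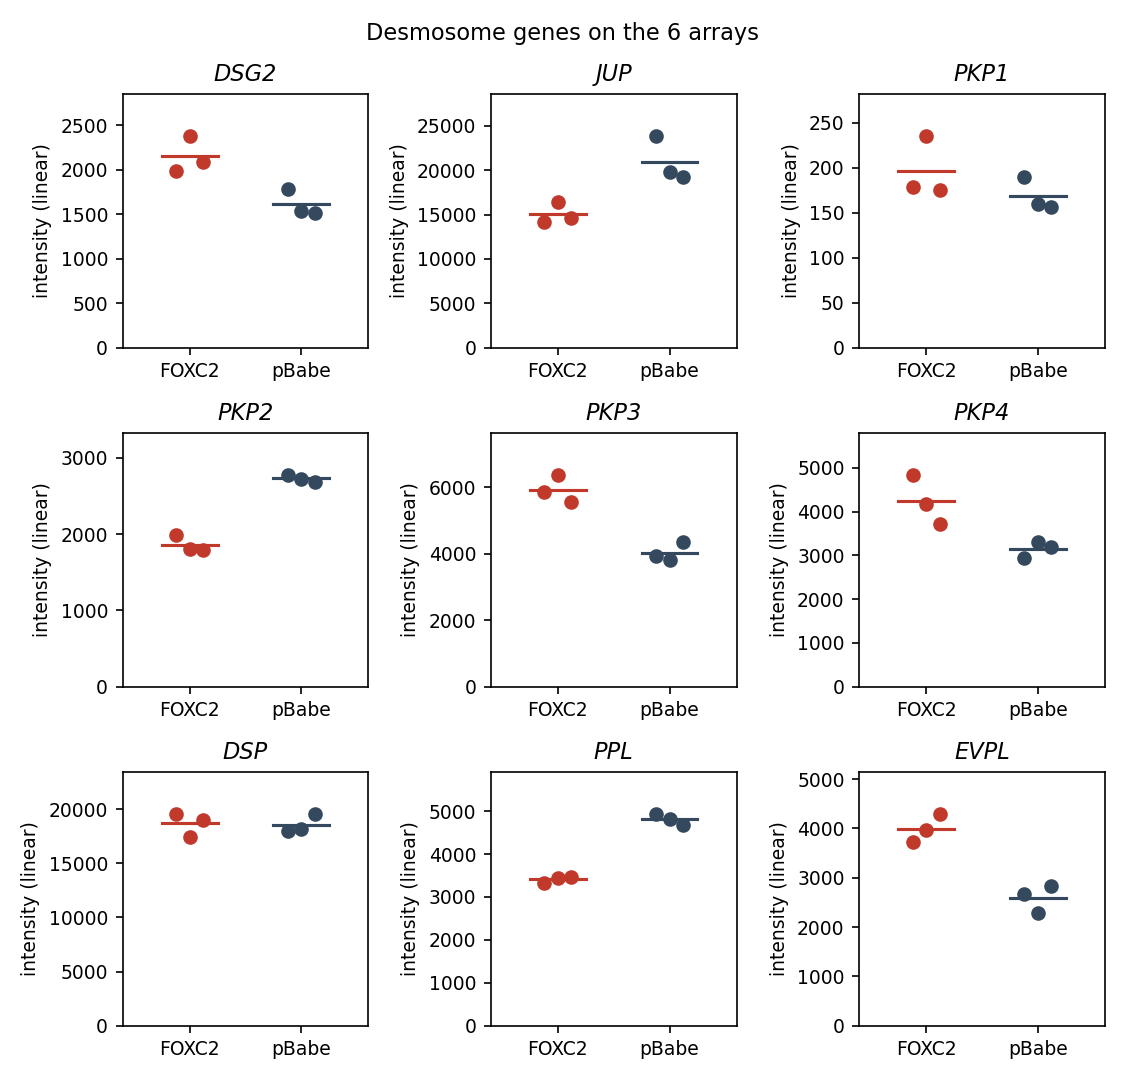
Linear intensity of the 9 measured desmosome genes on each array, with FOXC2 cultures at left and pBabe cultures at right; points are arrays and lines are group means. FOXC2 points lie wholly above pBabe for DSG2, PKP3, PKP4 and EVPL and wholly below for JUP, PKP2 and PPL, while DSP and PKP1 overlap.

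The single measured desmosomal cadherin was slightly higher. DSG2, desmoglein 2, the adhesive receptor of desmosomes in simple epithelia, had intensities of 1990.0, 2381 and 2089 in FOXC2 cultures, against 1784, 1534 and 1519 in pBabe cultures. The groups did not overlap, but the lowest FOXC2 and the highest pBabe value were close. The fold was 1.34 (95% confidence interval 1.11 to 1.61), a log2 fold change of 0.42 ± 0.113 (SE; limma adjusted p 0.0358). This call held with pBabe replicate 1 left out (adjusted p 0.0352) and was lost with any other single array left out: FOXC2 replicate 1 (0.0503), 2 (0.103) or 3 (0.0837), or pBabe replicate 2 (0.097) or 3 (0.0958). The other desmosomal cadherins DSG1, DSG3, DSG4, DSC1 and DSC3 were not analysed here.

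JUP, plakoglobin, links the cadherin tails to desmoplakin and is found in both desmosomes and adherens junctions. Its brighter feature (NM_021991) had intensities of 14151, 16414 and 14619 in FOXC2 cultures, against 23888, 19829 and 19248.5 in pBabe cultures. The pBabe arrays were all higher, with pBabe replicate 1 the highest. The log2 fold change was -0.47 ± 0.118 (SE), or 0.719 times the pBabe level (95% confidence interval 0.592 to 0.874; limma adjusted p 0.0272). Its second feature (NM_002230) had 8051, 9129 and 9341 in FOXC2 cultures, against 14256, 10403 and 12440.0 in pBabe cultures. The change there was of like size, at -0.48 ± 0.137 (SE; limma adjusted p 0.0435), again with no overlap. The brighter feature lost its call when FOXC2 replicate 1 (adjusted p 0.0786) or 3 (0.0846) was left out, and without pBabe replicate 1 (0.0615) or 2 (0.0527).

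The plakophilins, which cluster desmosomal cadherins and recruit desmoplakin, went in different directions. PKP2, the plakophilin of heart and simple epithelia, fell. Its intensities were 1992, 1805 and 1790.4 in FOXC2 cultures, against 2777, 2725 and 2689.5 in pBabe cultures. The groups were well apart, with the pBabe cultures tightly together, and the log2 fold change was -0.55 ± 0.0861 (SE), or 0.681 times the pBabe level (95% confidence interval 0.591 to 0.785; limma adjusted p 0.00483).

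PKP3, the plakophilin found in most epithelial desmosomes, rose. It had intensities of 5848, 6378 and 5569 in FOXC2 cultures, against 3935, 3810.0 and 4346 in pBabe cultures. Every FOXC2 array was above every pBabe array, and the fold was 1.47 (95% confidence interval 1.25 to 1.73), a log2 fold change of 0.56 ± 0.0985 (SE; limma adjusted p 0.00793). Both PKP2 and PKP3 passed with each of the 6 arrays left out in turn, with adjusted p of 0.0102 to 0.0237 for PKP2 and 0.0145 to 0.0304 for PKP3.

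PKP4, a p120-catenin relative of desmosomes and adherens junctions, gave a feature-dependent result. Its brighter feature (NM_003628) had 4841, 4179.7 and 3726 in FOXC2 cultures, against 2939.7, 3305 and 3181 in pBabe cultures. FOXC2 lay above pBabe throughout, and the fold was 1.35 (95% confidence interval 1.11 to 1.64), a log2 fold change of 0.43 ± 0.120 (SE; limma adjusted p 0.0397). Its second feature (NM_001005476) had 2526, 2675 and 2444 in FOXC2 cultures, against 2134, 1895 and 2698 in pBabe cultures. These groups overlapped through pBabe replicate 3, and the log2 fold change of 0.20 ± 0.141 (SE) did not pass (limma adjusted p 0.335). The difference between these features was not tested. With both averaged PKP4 did not pass (0.31, adjusted p 0.0727), nor with array weights (0.39, 0.0509). The brighter feature passed without FOXC2 replicate 3 (0.0372) and not without FOXC2 replicate 1 (0.0935) or 2 (0.093) or pBabe replicate 1 (0.107), 2 (0.07) or 3 (0.085).

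PKP1, the plakophilin of stratified epithelia, was dim. Its intensities of 179, 236 and 175 in FOXC2 cultures and 189.6, 160.1 and 156 in pBabe cultures were below the median of all values, 903. The groups overlapped, and the log2 fold change of 0.21 ± 0.147 (SE; 95% confidence interval -0.14 to 0.56) did not pass (limma adjusted p 0.321). Leaving out FOXC2 replicate 2, its highest array, brought the difference to 0.077 on the log2 scale (limma adjusted p 0.703), and with any other array left out it was 0.16 to 0.30.

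Among the plakins, DSP, desmoplakin, the obligate link between desmosome and keratin, was bright and close to equal in both groups. Its intensities were 19560.3, 17441 and 19036 in FOXC2 cultures, against 17983, 18137 and 19566 in pBabe cultures. The 2 ranges nearly coincided, and the fold was 1.01 (95% confidence interval 0.866 to 1.17), a log2 fold change of 0.01 ± 0.0906 (SE; limma adjusted p 0.956). The interval leaves out changes larger than 1.17-fold upward or below 0.866 times the pBabe level.

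PPL, periplakin, which connects junctions and envelope to intermediate filaments, fell. It had 3323, 3439 and 3469.9 in FOXC2 cultures, against 4938, 4823 and 4684 in pBabe cultures. Spread within each group was small, and the log2 fold change was -0.50 ± 0.0798 (SE), or 0.708 times the pBabe level (95% confidence interval 0.621 to 0.808; limma adjusted p 0.00549). EVPL, envoplakin, its binding partner, rose. It had 3734, 3959.9 and 4295 in FOXC2 cultures, against 2668, 2279 and 2839 in pBabe cultures. Its fold of 1.54 (95% confidence interval 1.28 to 1.86) was the largest rise among the 9 genes, at a log2 fold change of 0.63 ± 0.115 (SE; limma adjusted p 0.00908). Both passed with each array left out, with adjusted p of 0.0161 to 0.0224 for PPL and 0.0157 to 0.036 for EVPL.

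**Figure D2:**
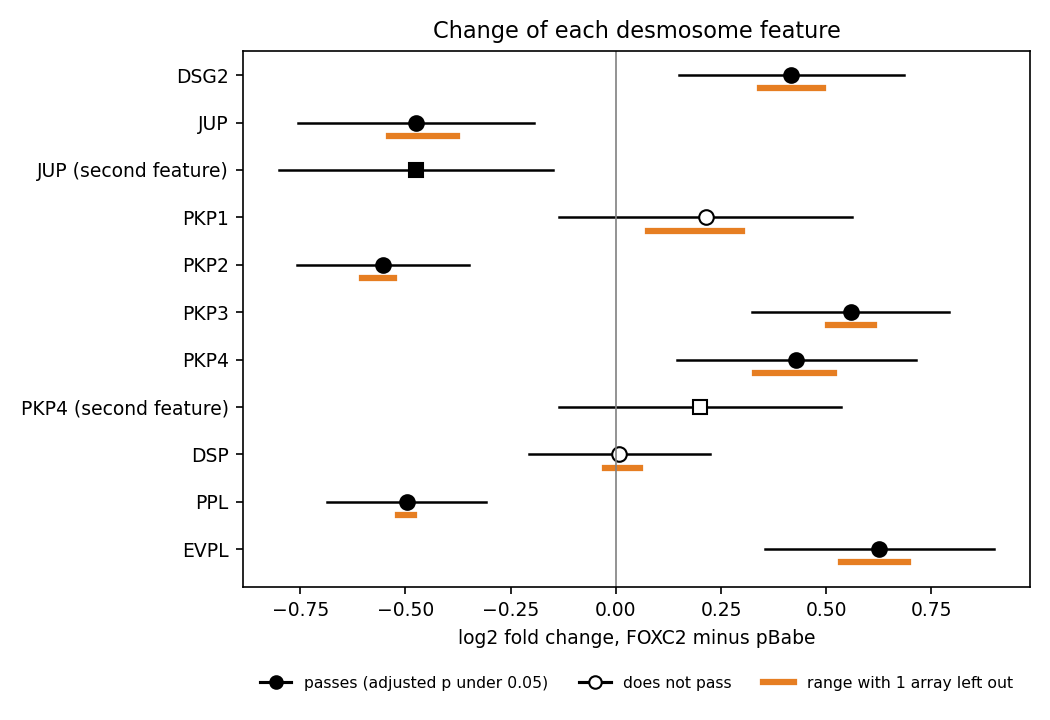
Log2 fold change (FOXC2 minus pBabe, x axis) of each of the 11 desmosome features, with its 95% confidence interval as a black line; squares are second features, filled symbols pass, and orange bars span the values with 1 array left out. PKP2 and PPL lie below 0 and PKP3 and EVPL above it with every array left out, while the orange bar of DSP crosses 0.

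With single arrays left out, the count of higher desmosome genes was 2 without replicate 1 or 2 of FOXC2 or replicate 2 or 3 of pBabe. It was 3 without replicate 3 of FOXC2 or replicate 1 of pBabe, against 4 on all arrays. The count of lower ones was 2 or 3. Fewer features passed in these smaller designs too, 5752 to 6768 over the array against 8819, the lowest being without FOXC2 replicate 3.

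Since desmosome genes went both ways, their balance within an array was compared for 7 pairs, which does not depend on the overall brightness of an array. These ratios were tested with a two-sided exact permutation test over arrays, whose smallest p with 3 against 3 is 0.1. All 7 pairs gave that p, adjusted p 0.1, so none could pass 0.05, and the sizes are given as measured. Where the genes of a pair moved in opposite directions, the separation of their ratio follows from that. DSP was close to equal in both groups, so its ratios to JUP and to PPL largely restate the falls of those genes. How often other pairs of genes separate was not counted.

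The PKP2 to PKP3 log2 ratio was -1.67 ± 0.137 in FOXC2 cultures and -0.56 ± 0.115 in pBabe cultures (SD, n = 3 each), a difference of -1.11, or a 2.16-fold shift toward PKP3. The PPL to EVPL log2 ratio was -0.23 ± 0.0725 in FOXC2 cultures and 0.90 ± 0.180 in pBabe cultures (SD, n = 3 each), a 2.18-fold shift toward EVPL. For PKP2 against PKP4 the shift in log2 ratio was -0.98, and for DSP against JUP and against PPL it was 0.48 and 0.51. The DSP to JUP log2 ratio was 0.31 ± 0.199 in FOXC2 cultures and -0.17 ± 0.220 in pBabe cultures (SD, n = 3 each), and these groups separated only narrowly.

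**Figure D3:**
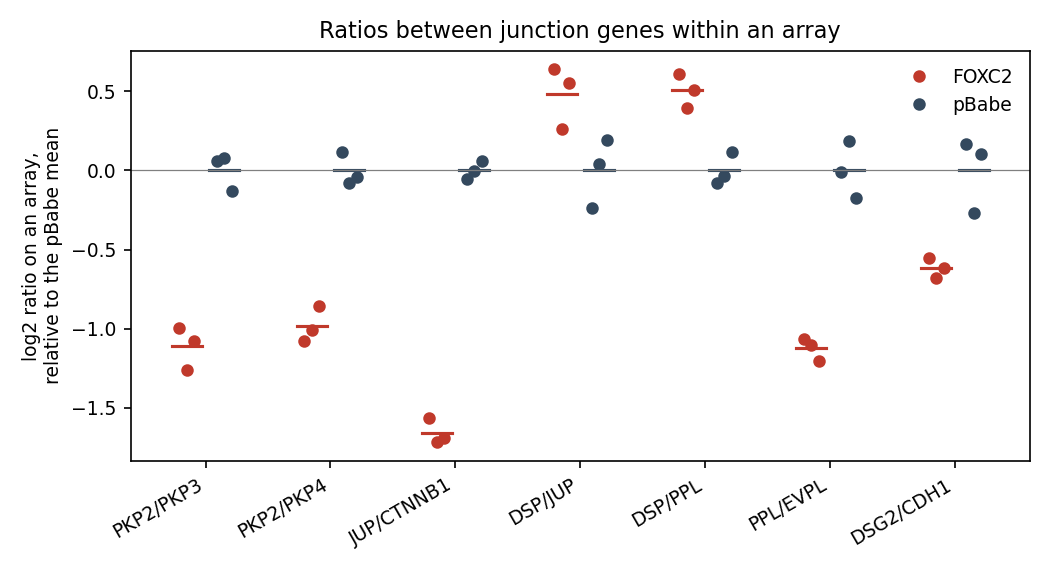
Log2 ratio of the brightest features of 2 junction genes on each array, set to a pBabe mean of 0 (y axis), for 7 pairs; points are arrays and short lines group means. FOXC2 and pBabe arrays separate in every pair, narrowly for DSP/JUP. Differences were -1.66 for JUP/CTNNB1, -1.12 for PPL/EVPL and -1.11 for PKP2/PKP3 (FOXC2 minus pBabe, log2).

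The widest shift among the 7 pairs was between the plaque's armadillo protein and its relative in adherens junctions. CTNNB1, beta-catenin, had 3098, 3993 and 3496 in FOXC2 cultures, against 1834, 1468 and 1367 in pBabe cultures. It rose by a log2 fold change of 1.18 ± 0.148 (SE; limma adjusted p 0.00205), while JUP fell. The JUP to CTNNB1 log2 ratio was 2.10 ± 0.0816 in FOXC2 cultures and 3.76 ± 0.0560 in pBabe cultures (SD, n = 3 each), a difference of -1.66. DSG2 and CDH1 both passed as higher, and the DSG2 to CDH1 log2 ratio was 3.42 ± 0.0648 in FOXC2 cultures and 4.04 ± 0.235 in pBabe cultures (SD, n = 3 each), although CDH1 was near the floor of the table.

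Genes that work with desmosomes were listed for comparison, and their counts stand beside the 28.4% of all named genes that passed. Among 12 adherens junction genes 3 rose and 2 fell, with a median log2 fold change of -0.14. CTNNB1, CDH1 and the p120-catenin relative ARVCF (0.63 ± 0.164, SE; limma adjusted p 0.0316) rose, while the adhesion receptor NECTIN4 fell most, by 1.96 ± 0.117 (SE; limma adjusted p 1.13e-04). CTNNA1, alpha-catenin, named after its values were seen, also fell (-0.45). ARVCF did not pass without FOXC2 replicate 2 (adjusted p 0.0897) or 3 (0.0981) or pBabe replicate 1 (0.0684) or 3 (0.0723). CTNNA1 did not pass without FOXC2 replicate 1 (0.0629) or 3 (0.0693) or pBabe replicate 1 (0.0591) or 2 (0.0654). In all, 3 of the 12 passed without FOXC2 replicate 3 or pBabe replicate 1.

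The filament partners were uneven. Of 7 measured of 8 keratins and vimentin, 1 rose and 2 fell, with a median log2 fold change near 0. KRT19, a keratin of simple epithelia, rose by 1.06 ± 0.0891 (SE; limma adjusted p 4.10e-04), and KRT7, a keratin of ductal epithelia, fell by 0.76 ± 0.123 (SE; limma adjusted p 0.0056). KRT18, a main keratin of the colon, fell by 0.30 (limma adjusted p 0.0353), a call lost with any 1 array left out (adjusted p 0.0672 to 0.102). Its second feature (NM_000224) did not pass (-0.19, limma adjusted p 0.296) and its groups overlapped, nor did KRT18 pass with both features averaged (-0.24, 0.0804).

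Of 8 measured of 13 other plakins and cornified envelope genes, 3 rose and 0 fell in limma, with a median of 0.24. At an unadjusted limma p under 0.05 were 4 of the 8, beside 5298 of all 12562 named genes. The fourth was DST, dystonin, named after its values were seen, at -0.23 by its brightest feature (limma adjusted p 0.105). Of its other features, the dim NM_001723 passed as lower (-0.85, limma adjusted p 0.0254), NM_183380 did not (-0.08, 0.632), and the mean over all 3 was -0.39 (0.0356). The rises were of PLEC, plectin, which ties keratin to several junctions (0.57 ± 0.107, SE; limma adjusted p 0.0102), of CDSN, corneodesmosin of skin (0.60; 0.00346), and of SPRR1B, a cornified envelope precursor (0.53; 0.0284). CDSN and SPRR1B were dim, at 338 to 378 and 341 to 363 in FOXC2 cultures. SPRR1B passed without pBabe replicate 2 and not without FOXC2 replicate 1 (0.0662), 2 (0.0686) or 3 (0.0878) or pBabe replicate 1 (0.0766) or 3 (0.0641).

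Of 13 measured of 15 genes of desmosome assembly, turnover and shedding, 0 rose and 1 fell in limma, with a median of -0.02. At an unadjusted limma p under 0.05 was 1 of the 13, beside 5298 of all 12562 named genes. The list includes the kinases PRKCA, SRC and EGFR, the calcium pump ATP2A2 and the sheddases ADAM10 and ADAM17. These were named after their values were seen and did not pass, with limma adjusted p from 0.221 (PRKCA) to 0.898 (SRC). The gene that fell was FLOT1, flotillin 1, a lipid raft protein that associates with desmosomal cadherins, by 0.46 ± 0.108 (SE; limma adjusted p 0.0228). FLOT1 did not pass without FOXC2 replicate 2 (0.068) or 3 (0.065) or pBabe replicate 1 (0.0565) or 3 (0.0663).

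Transcription factors of junction genes were the last list. Of 10 measured of 17, 5 rose and 1 fell, with a median of 0.31. CDX2, the intestinal homeobox factor, rose by 1.19 ± 0.125 (SE; limma adjusted p 0.00103), and OVOL2, which represses ZEB1, by 1.07 (0.00177). OVOL2 was dim, at 363 to 387 in FOXC2 cultures and 151 to 206 in pBabe cultures. SNAI2, a repressor of epithelial genes known to bind the letters CACCTG, rose by 1.01 (limma adjusted p 0.00134). Its binding to the windows printed above was not measured. ELF3, an epithelial ETS factor, fell by 0.57 ± 0.0902 (SE; limma adjusted p 0.00535). TWIST1 (0.56) and KLF5 (0.47), named after their values were seen, rose as well. TWIST1 did not pass without FOXC2 replicate 2 (0.0624) or 3 (0.0663) or pBabe replicate 2 (0.0513), nor KLF5 without FOXC2 replicate 2 (0.0526) or 3 (0.0619). ZEB1 (0.02) and SNAI1 (-0.53), likewise named after their values were seen, did not pass on all arrays, with limma adjusted p of 0.922 and 0.0556.

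**Figure D4:**
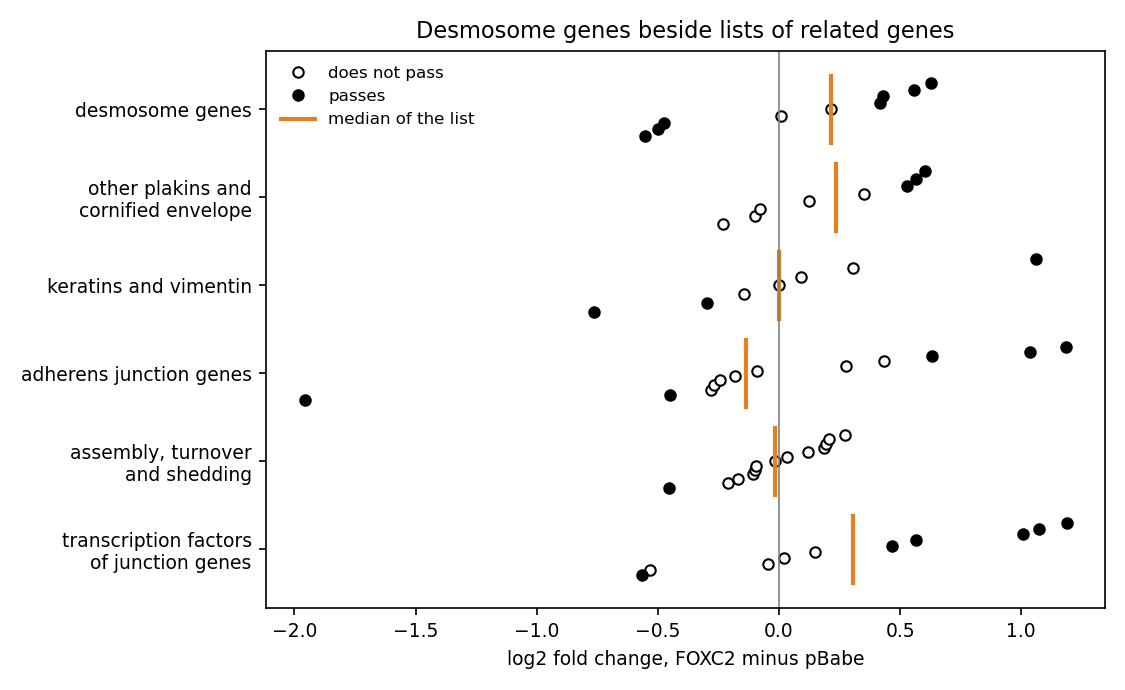
Log2 fold change (FOXC2 minus pBabe, x axis) of the brightest feature of each measured gene in the desmosome list and in 5 lists of related genes; filled points pass, open ones do not, and orange lines are medians. The passing desmosome genes lie in a group of 3 near -0.5 and a group of 4 between 0.4 and 0.7, with DSP (0.01) and PKP1 (0.21) between them. None reached the changes of NECTIN4 or CTNNB1, the largest in the adherens junction list.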

How the data were processed

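RNA was hybridised to 6 single-colour Cy3 NimbleGen arrays, 3 per group. The deposited table holds linear intensities, which the authors made with RMA, per the submitters' processing notes (version and background settings: not given in the sources used here). RMA as usually run makes array distributions alike, so a shift shared by all transcripts would not show. Intensities were log2-transformed with no offset or filter and fitted in limma 3.58.1 (R 4.3.3, lmFit and eBayes, FOXC2 minus pBabe), with Benjamini-Hochberg adjustment over 33497 features. Features were named from the platform annotation alone: 13730 had 1 gene symbol, 19767 none.

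The members, lists, pairs and motifs were chosen with earlier results of these data known. Named were all members, FOXC2, the genes of the pairs, up to 4 passing genes per related list by size of change, and passing markers; genes beyond this rule are marked as named after their values were seen. DSG2/DSC2, a planned pair, and the list of other desmosomal cadherins gave no values. Promoter windows came from RefSeq (GRCh38.p14). The fit was tested on simulated data. Alternatives were a replicate block, adding 16 to intensities, array weights, a trended and robust prior, quantile normalization, median centring, a filter on dim features, gene means over features, and each array left out. Those for the related lists were added after seeing the data. Detection calls and scan batches were not used here.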

Additional observations from a re-analysis of the deposited data

How the results depend on the processing

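PKP2, PKP3, PPL and EVPL kept their direction and passed under all 8 other settings and with each array left out. Of 71 results for desmosome genes under the other settings, 66 had the same direction and the same call and 5 no longer passed. The labels do not say that cultures with the same number were handled together, and deviations of same-numbered arrays from their group means correlated at -0.102, -0.119 and -0.0615, so the numbers were not taken to pair the arrays. With the replicate block 2 desmosome genes were higher and 2 lower, DSG2 (0.42, adjusted p 0.0943), JUP (-0.47, 0.073) and PKP4 (0.43, 0.0948) did not pass, 5960 features passed in all, and 0 assembly and turnover genes did (2 with a trended robust prior). PKP4 did not pass with array weights (0.39) or the mean over its features (0.31). With each array left out, the features passing ranged from 5752 to 6768, the desmosome genes higher from 2 to 3, DSG2 from 0.34 to 0.49, JUP from -0.54 to -0.38, PKP4 from 0.33 to 0.52, DSP from -0.026 to 0.057, ZEB1 from -0.089 to 0.10 and ACTA2 from -0.16 to 0.084 (0.014 with array weights), while 3 to 4 adherens junction genes and 0 to 1 assembly and turnover genes passed. The part of the smaller designs in these lost calls was not separated. All 7 pairs kept their direction under the 8 settings run for each. The exact permutation p rose from 0.1 to 0.2 for DSP/JUP without FOXC2 replicate 1 or 3 or pBabe replicate 1 or 2. For DSG2/CDH1 it rose to 0.2 without FOXC2 replicate 1, 2 or 3, where the smallest possible p is still 0.1. SNAI1 passed without pBabe replicate 3 (adjusted p 0.0499), with dim features left out (0.00645), a trended robust prior (0.00553) or the offset of 16 (0.0495), and DST with dim features left out (0.0455) or its features averaged (0.0356). Dim features limit what can be read from several genes, among them PKP1, CDH1, ARVCF, OVOL2, CDSN and SPRR1B.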
